A study of Homo sapiens with 9 samples.

Results

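Matrix metalloproteinases (MMPs) and their tissue inhibitors (TIMPs) were followed by the probes of 10 genes, MMP1, MMP2, MMP3, MMP9, MMP10, MMP13, MMP14, TIMP1, TIMP2 and TIMP3, out of 20046 genes named on the array. The genes were chosen by symbol, with earlier results of these data known, and all 11 of their probes are accounted for. RNA came from MDA-MB-231, a metastatic, estrogen receptor-negative human breast adenocarcinoma cell line, and was hybridised to Illumina expression arrays. In the isoform knockdown (3 arrays) the siRNA targeted a newly described splice form of MTDH, and in the WT knockdown (3 arrays) it targeted wild-type MTDH, each at 200 pmol for 24 h. MTDH encodes metadherin, a membrane-associated protein linked to metastasis and to NF-kB and AP-1 signalling. Control cells are described as untreated, so transfection and loss of MTDH cannot be told apart in any comparison with control. The deposited values of control replicate 2 were the average of the other controls at 47231 of 47231 probes, so that array was left out and 2 controls remain. The study asked how the profile after each siRNA compares with untreated cells, and whether the isoform acts differently from the wild type.

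MMPs are zinc-dependent endopeptidases that cut collagens, laminins, proteoglycans and many cell-surface proteins outside the cell. They are made as inactive proenzymes, activated by plasmin, furin-like proteases or one another, and blocked by TIMPs, which bind the active site. In breast cancer MMPs are studied for their part in invasion and TIMPs for holding it back, and transcription of several MMP genes is known to respond to AP-1, ETS and NF-kB factors and to interleukin-1. The array measures RNA alone, so enzyme activity, secretion and activation were not seen. In RNA from a whole culture, fewer cells that make a transcript and less transcript in each cell cannot be told apart.

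Promoter sequences are shown for TIMP1 and TIMP3, because these 2 inhibitors had different patterns over the knockdowns: TIMP1 was higher in both than in control, and TIMP3 separated the knockdowns from each other. RefSeq's promoter table (GRCh38.p14) held an entry for 4 of the 10 genes, TIMP1, TIMP3, MMP14 and MMP10. The windows are the 250 bases before the transcription start, read 5′ to 3′ on the gene's strand, chrX:47582186-47582435 (+) for TIMP1 and chr22:32801455-32801704 (+) for TIMP3. Capitals mark the letters GGGCGG (the core of a GC box, bound by SP1) or its reverse complement, and TGAGTAA, a 1-base variant of the AP-1 element.
TIMP1 promoter: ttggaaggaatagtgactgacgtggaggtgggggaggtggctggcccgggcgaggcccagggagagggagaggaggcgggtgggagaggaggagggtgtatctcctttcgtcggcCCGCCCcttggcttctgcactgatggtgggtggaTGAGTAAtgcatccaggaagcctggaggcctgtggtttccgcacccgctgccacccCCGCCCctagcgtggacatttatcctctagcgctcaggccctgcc
TIMP3 promoter: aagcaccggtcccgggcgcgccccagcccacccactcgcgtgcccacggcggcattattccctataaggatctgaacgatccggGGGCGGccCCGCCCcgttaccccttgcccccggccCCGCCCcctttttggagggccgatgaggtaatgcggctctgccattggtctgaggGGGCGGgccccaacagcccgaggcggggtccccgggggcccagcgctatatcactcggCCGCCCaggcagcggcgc
The TIMP1 window held TGAGTAA once, at bases -101 to -95 from the start, and 2 copies of the GC box letters, both on the opposite strand. The TIMP3 window held 5 copies of the GC box letters and no TGAGTAA. The MMP14 window held 1 copy of the GC box letters, and the MMP10 window held TATAAA at bases -31 to -26 and no GC box letters. The canonical AP-1 element TGAGTCA was in none of the 4 windows on either strand. Among 34943 promoter windows of the same length, TGAGTCA was in 4.22%, TATAAA in 10.75%, TGAGTAA in 2.21% and GGGCGG in 42.55%, and no matches overlapped in the 4 windows. TGAGTAA and GGGCGG were searched after the sequences had been read. GC content was 64.8% for TIMP1, 72.4% for TIMP3, 56.8% for MMP14 and 34.4% for MMP10. These matches describe the letters only.

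On each of the 8 arrays, 20295 to 21761 probes were detected above the negative controls (detection p under 0.05), or 43.0% to 46.1%; precision throughout is limited by how few arrays there are. The labels give neither slide nor date, and the row order of the signal table differed between control and knockdown columns, so siRNA and any separate handling cannot be told apart. The MTDH probe had a mean normalized log2 level of 9.77 in the isoform knockdown, 9.76 in the WT knockdown and 10.70 in control cells; which transcripts it sees is not given. Markers of the line (VIM, CD44, EGFR, KRT18, AXL and CAV1) were detected in 6 of 6, with summed signals of 29003 to 34180 in the isoform knockdown, 22337 to 25677 in the WT knockdown and 31430 to 41961 in control cells. The luminal genes ESR1, PGR, FOXA1 and CDH1 did not pass the detection filter, nor did the leukocyte genes PTPRC, CD3D and ITGAM, the fibroblast genes COL3A1, PDGFRA, FAP and THY1, or any of 6 endothelial genes. Detected fibroblast markers were 4 of 8, with summed signals of 411 to 432, 338 to 379 and 411 to 483 in the isoform knockdown, the WT knockdown and control cells. Their normalized differences were mixed: in the WT knockdown against control PDGFRB fell by 1.32 ± 0.12 (adjusted p = 2.78e-05) and COL1A1, detected on 1 of 2 controls, rose by 0.68 ± 0.12 (adjusted p = 0.00104), and the median of the 4 was 0.39. The 3 detected leukocyte markers of 7 (CD14, CD68 and LYZ) summed to 1393 to 1600, 1085 to 1182 and 1467 to 1857 in the same groups. The 3 detected luminal markers of 7 (GATA3, EPCAM and ERBB3) summed to 434 to 501, 412 to 480 and 582 to 726. All these sums are of raw signals. In the WT knockdown against control, CD68 fell by 0.51 ± 0.09 and CD14 rose by 0.39 ± 0.13 (adjusted p = 0.00142 and 0.0269). EPCAM fell by 0.65 ± 0.11 and ERBB3 rose by 0.40 ± 0.14 there (adjusted p = 0.000944 and 0.0332), while LYZ and GATA3 did not pass. The part of these markers in the results was not tested.

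Detection came first, since it decides which members can be compared. Of the 11 probes, 7, those of MMP1, MMP3, MMP14, TIMP1, TIMP2 (a pair) and TIMP3, were detected on all 8 arrays and therefore passed the filter in every group. The other 4 probes, those of MMP2, MMP9, MMP10 and MMP13, were detected on none. For MMP2, the gelatinase that MMP14 activates at the cell surface, detection p lay between 0.242 and 0.538, and the raw signal between 60.3 and 66.9. MMP9, the other gelatinase, had signals of 54.4 to 71.6 and detection p of 0.147 to 0.784, its highest signal on control replicate 1. Stromelysin-2 (MMP10) had signals of 51.4 to 66.5, and collagenase-3 (MMP13) had signals of 46.9 to 68.6, with lowest detection p of 0.336 and 0.191. These 4 genes were not well above background in any group, so no fold is given for them. Normalized log2 levels of detected probes began at 4.82 to 4.91, depending on the array, and dimmer RNA could not be measured.

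**Figure D1:**
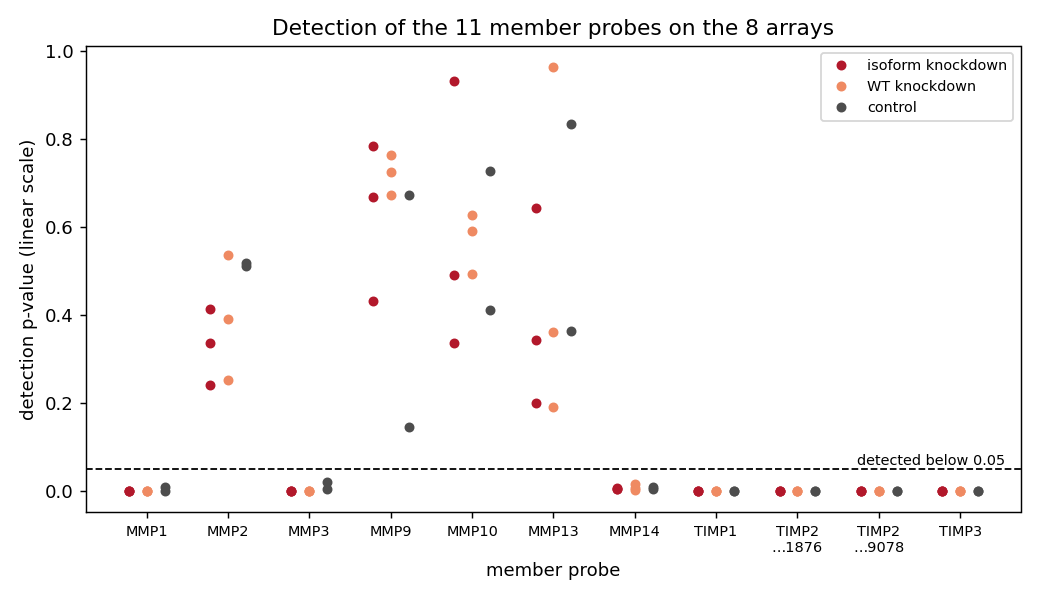
Detection p-value (linear axis) of each of the 11 MMP and TIMP probes on the 8 arrays, 1 point per array, with isoform knockdown, WT knockdown and control from left to right and the detection threshold of 0.05 as a dashed line. Points of MMP2, MMP9, MMP10 and MMP13 all lie above the line, the lowest at 0.147, and all other points lie at or under 0.0208.

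MMP1 and MMP3 lie in a run of neighbouring MMP genes on chromosome 11. Of 9 genes there (MMP7, MMP20, MMP27, MMP8, MMP10, MMP1, MMP3, MMP12 and MMP13, in the order of the RefSeq table), 2 had a probe that passed the detection filter, MMP1 and MMP3, and 7 did not. The 2 detected genes are neighbours, with MMP10 next to MMP1 and MMP12 next to MMP3 on the outer sides. A gene that did not pass may be silent, or its probe may be insensitive.

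MMP3, stromelysin-1, which cuts proteoglycans, laminin and fibronectin and activates other proenzymes, was higher after both siRNAs. Its normalized log2 levels were 6.36, 6.41 and 6.38 in the isoform knockdown, 6.03, 6.21 and 6.32 in the WT knockdown and 5.27 and 5.04 in control cells. All 6 knockdown arrays lay above both controls, and the isoform arrays lay above the WT arrays by a small margin. MMP3 rose by 1.23 ± 0.11 (SE) in the isoform knockdown against control (2.35-fold, adjusted p = 7.45e-05) and by 1.03 ± 0.11 in the WT knockdown against control (2.05-fold, adjusted p = 7.48e-05), by limma with Benjamini-Hochberg adjustment over 22087 probes, as are all adjusted p-values here. Between the knockdowns the difference, isoform minus WT, was 0.20 ± 0.10 (95% confidence interval -0.03 to 0.43, adjusted p = 0.163), which did not pass. The size depended on the background correction: without it, MMP3 differed from control by 0.58 in the isoform knockdown and by 0.47 in the WT knockdown, and on the authors' log2 values by 0.69 and 0.56, and all of these passed. MMP3 stayed past the threshold against control under all 19 alternatives run.

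MMP1, interstitial collagenase, which cuts fibrillar collagen, had raw signals of 136.5, 140.1 and 161.1 in the isoform knockdown, 98.4, 128.2 and 110.0 in the WT knockdown and 84.4 and 97.8 in control cells. Normalized log2 levels were 6.37, 6.54 and 6.97 in the isoform knockdown, 5.67, 6.35 and 6.26 in the WT knockdown and 5.08 and 5.74 in control cells. The isoform arrays lay above all others, while WT replicate 1 fell between the controls, which lay far apart. MMP1 rose by 1.22 ± 0.26 in the isoform knockdown against control (2.32-fold, adjusted p = 0.00554). The WT knockdown minus control was 0.68 ± 0.26 (95% confidence interval 0.10 to 1.27, adjusted p = 0.0522), just short of the threshold. The isoform knockdown minus the WT knockdown was 0.53 ± 0.23 (95% confidence interval 0.01 to 1.06, adjusted p = 0.109).

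Single arrays decided some of the calls for MMP1. Without control replicate 1, the isoform difference was 0.87 with an adjusted p of 0.0557. The WT difference was 1.01 without control replicate 3 (adjusted p = 0.0257), 0.90 without WT replicate 1 (adjusted p = 0.0163) and 0.69 without isoform replicate 3 (adjusted p = 0.0423), each past the threshold. It was 0.35 without control replicate 1 (adjusted p = 0.368), and 0.56 and 0.61 without WT replicates 2 and 3 (adjusted p = 0.139 and 0.131). In each group MMP1 was lowest on replicate 1. With replicate number added to the fit, the WT difference was 0.64 ± 0.14 (adjusted p = 0.00815) and the isoform difference 1.17 ± 0.14 (adjusted p = 0.00143). On the authors' log2 values MMP1 differed from control by 0.72 in the isoform knockdown and 0.38 in the WT knockdown, and the knockdowns from each other by 0.34, all past the threshold (adjusted p = 0.000195, 0.0198 and 0.0274).

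MMP14 (MT1-MMP), the membrane-bound collagenase that activates proMMP2 in a complex with TIMP2, was dim but detected on every array, with signals of 76.9 to 88.4. Its normalized levels were 5.35, 5.23 and 5.44 in the isoform knockdown, 5.20, 5.36 and 5.18 in the WT knockdown and 5.07 and 5.30 in control cells. The 3 groups overlapped. The differences were 0.15 ± 0.11 for the isoform knockdown minus control (95% confidence interval -0.10 to 0.41, adjusted p = 0.303), 0.06 ± 0.11 for the WT knockdown minus control (-0.19 to 0.31, adjusted p = 0.683) and 0.09 ± 0.10 for isoform minus WT (-0.13 to 0.32, adjusted p = 0.515).

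**Figure D2:**
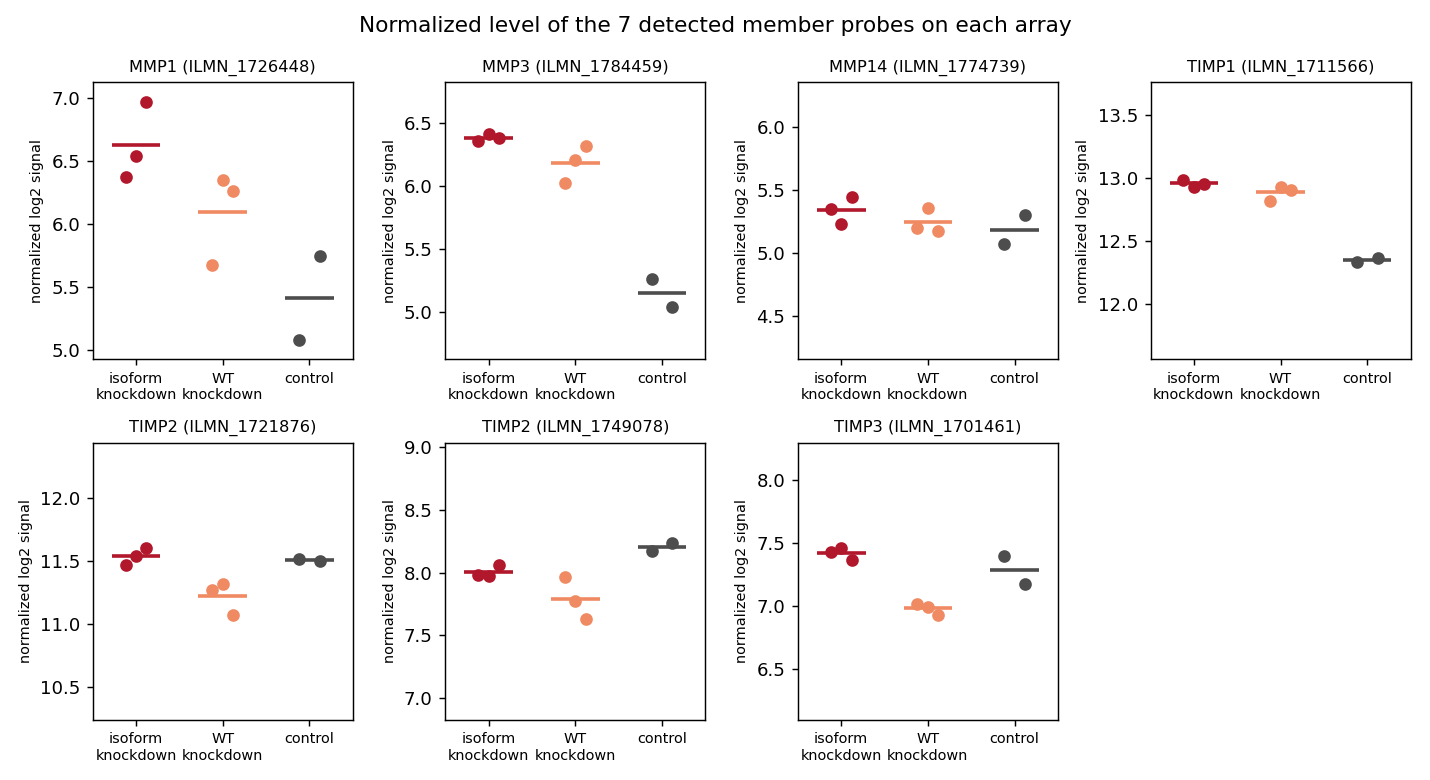
Normalized log2 signal of the 7 detected MMP and TIMP probes, 1 panel per probe and 1 point per array, with isoform knockdown (n = 3), WT knockdown (n = 3) and control (n = 2) from left to right and the group mean as a bar; every panel spans the same height in log2 units. MMP3 and TIMP1 stand higher in both knockdowns than in control, whereas the WT knockdown is lowest for TIMP2 and TIMP3.

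Among the inhibitors, TIMP1, a secreted inhibitor of most soluble MMPs that also acts as a growth and survival factor, was higher in both knockdowns. Its normalized levels were 12.98, 12.93 and 12.95 in the isoform knockdown, 12.82, 12.93 and 12.90 in the WT knockdown and 12.33 and 12.36 in control cells. The knockdown arrays overlapped each other and lay clear of the controls. TIMP1 rose by 0.61 ± 0.08 in the isoform knockdown (1.52-fold, adjusted p = 0.000617) and by 0.54 ± 0.08 in the WT knockdown (1.45-fold, adjusted p = 0.000645), each against control. The isoform knockdown minus the WT knockdown was 0.07 ± 0.08 (95% confidence interval -0.10 to 0.24, adjusted p = 0.515). These rises depended on the scaling: with arrays scaled by their medians in place of quantile normalization, TIMP1 differed from control by 0.37 in the isoform knockdown (adjusted p = 0.115) and by 0.19 in the WT knockdown (adjusted p = 0.426), while the median of all kept probes moved to -0.13 and -0.18. Relative to that median the TIMP1 differences were 0.51 and 0.38. With median scaling every detected member probe had the same SE against control, 0.19, where TIMP1 had 0.08 in the main fit. Both the differences and their SE thus changed with the scaling, and the part of each in the lost calls was not tested.

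TIMP3, the inhibitor held in the extracellular matrix that also blocks several ADAM proteases, separated the knockdowns. Its normalized levels were 7.43, 7.46 and 7.36 in the isoform knockdown, 7.01, 6.99 and 6.93 in the WT knockdown and 7.39 and 7.17 in control cells. The WT arrays lay below all the others, and the isoform arrays overlapped the controls. TIMP3 was higher by 0.44 ± 0.09 in the isoform knockdown than in the WT knockdown (1.36-fold, adjusted p = 0.00428), and this difference passed under all 19 alternatives (adjusted p from 0.000853 to 0.0199). In the WT knockdown TIMP3 fell by 0.31 ± 0.10 against control, to 80.9% of the control level (adjusted p = 0.0256). That call was lost without control replicate 1 (-0.19, adjusted p = 0.219), without WT replicate 2 (-0.31, adjusted p = 0.0501) and without WT replicate 3 (-0.28, adjusted p = 0.0582). The isoform knockdown minus control was 0.13 ± 0.10 (95% confidence interval -0.08 to 0.35, adjusted p = 0.303).

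TIMP2, the partner of MMP14 in activating proMMP2 and an inhibitor in its own right, was measured by a pair of probes. ILMN_1721876 had normalized levels of 11.47, 11.54 and 11.61 in the isoform knockdown, 11.27, 11.32 and 11.07 in the WT knockdown and 11.52 and 11.50 in control cells. ILMN_1749078 had levels of 7.98, 7.97 and 8.06 in the isoform knockdown, 7.96, 7.77 and 7.63 in the WT knockdown and 8.17 and 8.23 in control cells. On both probes every WT array lay below every isoform array and both controls. TIMP2 fell in the WT knockdown against control on both probes, by 0.29 ± 0.10 on the first (81.8% of the control level, adjusted p = 0.0393) and by 0.42 ± 0.11 on the second (75.0%, adjusted p = 0.0106). The isoform knockdown minus control was 0.03 ± 0.10 on the first probe (95% confidence interval -0.20 to 0.26, adjusted p = 0.846) and -0.20 ± 0.11 on the second (-0.45 to 0.05, adjusted p = 0.181). Between the knockdowns the probes fell on different sides of the threshold. ILMN_1721876 was higher by 0.32 ± 0.09 in the isoform knockdown than in the WT knockdown (1.25-fold, adjusted p = 0.0247), while ILMN_1749078 gave 0.22 ± 0.10 (-0.003 to 0.44, adjusted p = 0.120).

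The TIMP2 calls were close to the threshold. On ILMN_1721876, the fall in the WT knockdown missed it under 8 of 19 alternatives, among them leaving out control replicate 1 (adjusted p = 0.133), control replicate 3 (0.125), WT replicate 1 (0.0552), WT replicate 3 (0.0934) or isoform replicate 2 (0.0555), with values of -0.31 to -0.22. On ILMN_1749078 the fall missed it without control replicate 3 (-0.38, adjusted p = 0.0695). The isoform against WT difference on ILMN_1721876 missed it without WT replicate 3 (0.24, adjusted p = 0.0677), isoform replicate 2 (0.31, 0.0640) or isoform replicate 3 (0.28, 0.0807), and on ILMN_1749078 it passed without WT replicate 1 (0.31, adjusted p = 0.0411). With median scaling ILMN_1749078 was lower than control in the isoform knockdown too (-0.46 ± 0.19, adjusted p = 0.0486). Relative to the median of all probes it was -0.33.

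**Figure D3:**
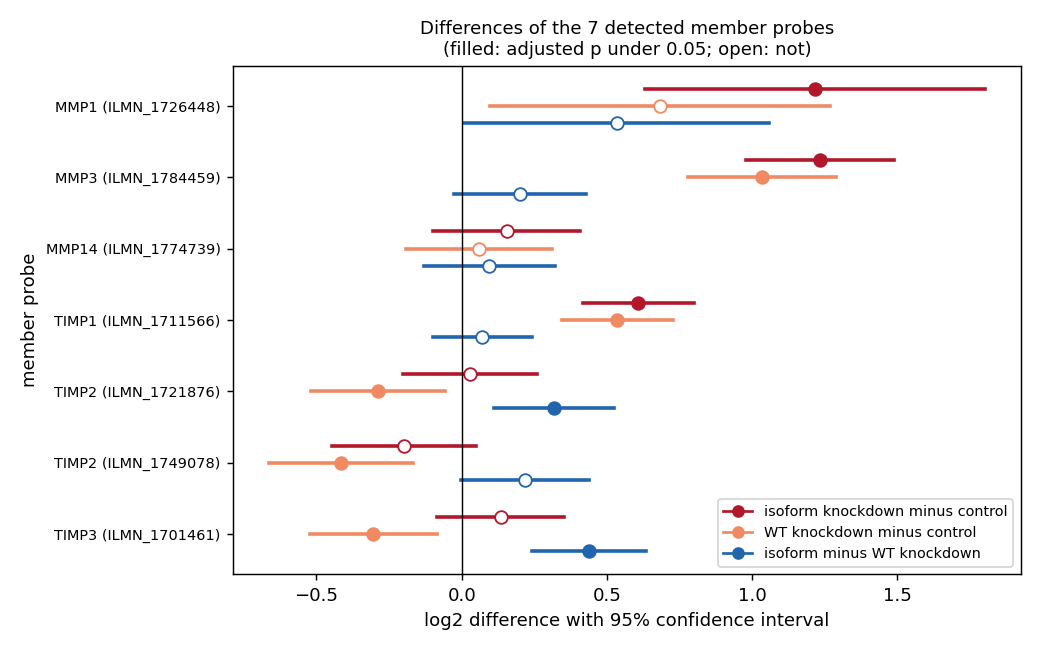
Log2 differences with 95% confidence intervals for the 7 detected MMP and TIMP probes, from top to bottom within each probe the isoform knockdown minus control, the WT knockdown minus control and the isoform minus the WT knockdown; filled points passed an adjusted p of 0.05. MMP3 and TIMP1 lie to the right of 0 against control in both knockdowns, and both TIMP2 probes and TIMP3 lie to the left of 0, with filled points, for the WT knockdown minus control.

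Counts over the detected probes have to be read against a broad background. In the WT knockdown against control, 5 of the 7 probes passed (2 higher, 3 lower), where 51.2% of all 22087 kept probes passed (24.9% higher, 26.3% lower). In the isoform knockdown against control, 3 of 7 passed, all higher, against a background of 39.6% (19.4% higher, 20.2% lower). Isoform against WT gave 2 of 7, both higher, against 33.6% (17.6% higher, 15.9% lower). The groups did not overlap at 4 of 7 probes for the isoform knockdown against control (62.3% of all probes), 5 of 7 for the WT knockdown against control (67.5%) and 5 of 7 for isoform against WT (46%). With 7 probes, these shares are not read as a property of the family. Median log2 differences of the 7 probes were 0.15, 0.06 and 0.22 in the isoform, WT and isoform-minus-WT comparisons, beside 0.00, 0.00 and 0.02 over all kept probes. Without control replicate 1 or WT replicate 3, the count in the WT knockdown was 3 of 7, and without WT replicate 3, isoform replicate 2 or isoform replicate 3 the count between the knockdowns was 1 of 7. Both comparisons with control use the same 2 control arrays, so their likeness is in part built in.

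The other 17 MMP genes and TIMP4 were mostly below detection. Of these 18 genes 7 had a detected probe that passed the filter, MMP11, MMP15, MMP16, MMP19, MMP23B, MMP25 and TIMP4. None of the 7 passed against control in either knockdown. Of all 12092 measured genes, 43.6% passed for the isoform knockdown (20.2% higher, 23.5% lower) and 56.1% for the WT knockdown (26.9% higher, 29.2% lower). The smallest adjusted p-values were 0.05002 for MMP25 in the WT knockdown and 0.0731 for MMP11 in the isoform knockdown (0.39 ± 0.16). MMP25 was detected on 2 of 3 WT arrays and 0 of 2 controls. Its WT mean lay 1.12-fold above the lowest detected level of the control arrays, but its difference from control did not pass. Between the knockdowns 2 of 7 were higher in the isoform knockdown and none lower, beside 38.4% of genes (19.3% higher, 19.1% lower). MMP16 (MT3-MMP), a membrane-bound enzyme, was detected on 3 of 3 isoform arrays, 0 of 3 WT arrays and 1 of 2 controls, and was at least 1.23-fold higher in the isoform knockdown than in the WT knockdown (adjusted p = 0.00343). TIMP4 averaged 6.51 ± 0.29 (SD) in the isoform knockdown, 5.96 ± 0.23 in the WT knockdown and 6.34 ± 0.02 in control cells, a difference of 0.55 ± 0.16 (SE) between the knockdowns (adjusted p = 0.0257). TIMP2 (on 1 of its probes), TIMP3 and TIMP4 were thus each higher in the isoform than in the WT knockdown, and TIMP1 did not pass.

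Genes that activate, inhibit or dock MMPs moved in both directions. Of 17 measured, 6 rose and 2 fell in the isoform knockdown, and 5 rose and 5 fell in the WT knockdown, against control; 7 were higher and 1 lower in the isoform than in the WT knockdown. Over all measured genes 43.6% passed in the isoform knockdown (20.2% higher, 23.5% lower), 56.1% in the WT knockdown (26.9% higher, 29.2% lower) and 38.4% between them (19.3% higher, 19.1% lower). Their median differences were 0.06, 0.02 and 0.03, beside -0.02, -0.01 and 0.01 over all genes. PLAU, urokinase, which generates plasmin, fell by 0.66 ± 0.10 in the isoform knockdown (adjusted p = 0.00097) and by 0.89 ± 0.10 in the WT knockdown (adjusted p = 8.73e-05). PLAT, the tissue-type activator of plasminogen, rose by 0.72 ± 0.09 and 0.47 ± 0.09 in the same comparisons (adjusted p = 0.00029 and 0.0016). CD44, a hyaluronan receptor that can anchor MMPs at the cell surface, fell by 0.56 ± 0.08 and 0.80 ± 0.08 (adjusted p = 0.000893 and 5.89e-05), and TFPI2, a protease inhibitor of the matrix, rose by 0.65 ± 0.10 and 0.82 ± 0.10 (adjusted p = 0.00115 and 0.000148).

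Within that list the knockdowns differed most clearly at CLDN1. This tight-junction protein rose by 0.55 ± 0.10 in the isoform knockdown (adjusted p = 0.00204) and fell by 0.46 ± 0.10 in the WT knockdown (adjusted p = 0.00324), a difference of 1.02 ± 0.09 (adjusted p = 5.84e-05). LCN2, lipocalin-2, which binds MMP9, was higher by 0.52 ± 0.08 in the isoform than in the WT knockdown (adjusted p = 0.00108). CAV1, the main protein of caveolae, was higher by 0.55 ± 0.08 in the same comparison (adjusted p = 0.00112). RECK, a membrane-anchored MMP inhibitor, was named after its values were seen. It averaged 6.38 ± 0.11 (SD) in the isoform knockdown, 5.81 ± 0.34 in the WT knockdown and 6.66 ± 0.00 in control cells, and it fell by 0.85 ± 0.17 (SE) in the WT knockdown against control (adjusted p = 0.0026) and was 0.57 ± 0.15 higher in the isoform than in the WT knockdown (adjusted p = 0.0191).

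Transcription factors known to act on MMP promoters were mostly measured (16 of 18). Against control, 8 rose and 4 fell in the isoform knockdown and 6 rose and 6 fell in the WT knockdown; 1 was higher and 2 lower in the isoform than in the WT knockdown. All genes passed at 43.6%, 56.1% and 38.4% in these comparisons. Medians were 0.12, 0.18 and 0.07, beside -0.02, -0.01 and 0.01 over all genes. The AP-1 subunit JUNB rose by 1.03 ± 0.12 in the isoform knockdown (adjusted p = 0.000241) and 0.94 ± 0.12 in the WT knockdown (adjusted p = 0.000178). FOS, another AP-1 subunit, was detected on 3 of 3 isoform arrays, 3 of 3 WT arrays and 1 of 2 controls; it rose by 1.88 ± 0.16 and 1.21 ± 0.16 (adjusted p = 5.41e-05 and 0.000224) and was 0.67 ± 0.14 higher in the isoform than in the WT knockdown (adjusted p = 0.00636). FOSB rose by 1.00 ± 0.13 in the isoform knockdown and 0.96 ± 0.13 in the WT knockdown (adjusted p = 0.000409 and 0.000247), and JUND fell by 0.75 ± 0.09 and 0.60 ± 0.09 (adjusted p = 0.000358 and 0.000612). For ETS2 and the NF-kB subunit RELA, isoform minus WT was -0.55 ± 0.08 and -0.30 ± 0.09 (adjusted p = 0.000938 and 0.0265). Against control, ETS2 rose by 0.51 ± 0.09 in the WT knockdown (adjusted p = 0.00129) and did not pass in the isoform knockdown (-0.04 ± 0.09). RELA rose by 0.29 ± 0.10 and 0.59 ± 0.10 in the isoform and the WT knockdown (adjusted p = 0.0403 and 0.000841). NFKB1, another NF-kB subunit, named after its values were seen, fell by 0.59 ± 0.09 and 0.55 ± 0.09 (adjusted p = 0.000756 and 0.000564).

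Cytokines and growth factors known to raise MMP transcription, a list drawn up with earlier results of these data known, passed only upward against control. Of 9 measured, 6 rose in the isoform knockdown and 5 in the WT knockdown and none fell, beside 20.2% and 26.9% of all genes that rose; medians were 0.44 and 0.48, beside -0.02 and -0.01 over all genes. IL1B rose by 1.94 ± 0.10 in the isoform knockdown (adjusted p = 5.03e-06) and by 1.60 ± 0.10 in the WT knockdown (adjusted p = 4.45e-06), and was 0.34 ± 0.09 higher in the isoform than in the WT knockdown (adjusted p = 0.0196). IL1A rose by 1.21 ± 0.10 and 0.94 ± 0.10 (adjusted p = 5.85e-05 and 8.14e-05), and IL6 by 1.38 ± 0.09 and 1.37 ± 0.09 (adjusted p = 1.32e-05 and 4.4e-06), in the isoform and the WT knockdown. Between the knockdowns 2 were higher and 1 lower in the isoform knockdown, beside 38.4% of all genes in either direction. The median there was 0.24, beside 0.01 over all genes. TGFB2 was higher by 0.33 ± 0.10 in the isoform knockdown (adjusted p = 0.0292), and PDGFA differed by -0.57 ± 0.19 (adjusted p = 0.0415).

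The related ADAM and ADAMTS proteases, which shed cell-surface proteins or cut proteoglycans, had 10 of 15 genes measured. Against control, 2 rose and 3 fell in the isoform knockdown and 2 rose and 5 fell in the WT knockdown; between the knockdowns 3 were higher in the isoform knockdown and none lower. The shares of all genes that passed were 43.6%, 56.1% and 38.4%. Medians were -0.15, -0.37 and 0.27, beside -0.02, -0.01 and 0.01 over all genes. ADAM17, the TNF-converting enzyme that TIMP3 inhibits, rose by 0.71 ± 0.09 in the isoform knockdown (adjusted p = 0.000439) and 0.48 ± 0.09 in the WT knockdown (adjusted p = 0.00203). ADAMTS6 rose by 0.85 ± 0.11 in the isoform knockdown and by 0.51 ± 0.11 in the WT knockdown (adjusted p = 0.000457 and 0.00449). ADAM15 fell by 0.46 ± 0.11 and 0.54 ± 0.11 in the same comparisons (adjusted p = 0.00776 and 0.00234). ADAM8 fell by 0.44 ± 0.11 and 0.81 ± 0.11 (adjusted p = 0.0107 and 0.000231), and ADAM19 by 0.32 ± 0.10 and 0.55 ± 0.10 (adjusted p = 0.0293 and 0.00133). ADAM8, ADAM9 and ADAMTS6 were higher in the isoform than in the WT knockdown, by 0.37 ± 0.10, 0.45 ± 0.12 and 0.35 ± 0.10 (adjusted p = 0.0155, 0.0204 and 0.0248).

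Matrix and basement membrane substrates of MMPs had 13 of 19 genes measured. Against control, 4 rose and 2 fell in the isoform knockdown, and 2 rose and 7 fell in the WT knockdown; 5 were higher and 1 lower in the isoform than in the WT knockdown. Beside these stand 43.6%, 56.1% and 38.4% of all genes past the threshold. Medians were 0.18, -0.30 and 0.30, beside -0.02, -0.01 and 0.01 over all genes. LAMB1, the laminin beta-1 chain, fell by 0.46 ± 0.09 in the isoform knockdown and by 0.94 ± 0.09 in the WT knockdown (adjusted p = 0.00379 and 3.74e-05), and differed by 0.48 ± 0.08 between them (adjusted p = 0.00189). Its partner LAMC1 fell by 0.61 ± 0.08 in the WT knockdown (adjusted p = 0.000307) and was 0.54 ± 0.08 higher in the isoform knockdown than there (adjusted p = 0.000742). LAMB3, a chain of laminin-332, rose by 0.76 ± 0.11 in the isoform knockdown and 0.78 ± 0.11 in the WT knockdown (adjusted p = 0.000816 and 0.000357). COL6A1 rose by 0.61 ± 0.10 in the isoform knockdown against control (adjusted p = 0.00156), and COL5A1 was 0.48 ± 0.09 higher in the isoform than in the WT knockdown (adjusted p = 0.00342).

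**Figure D4:**
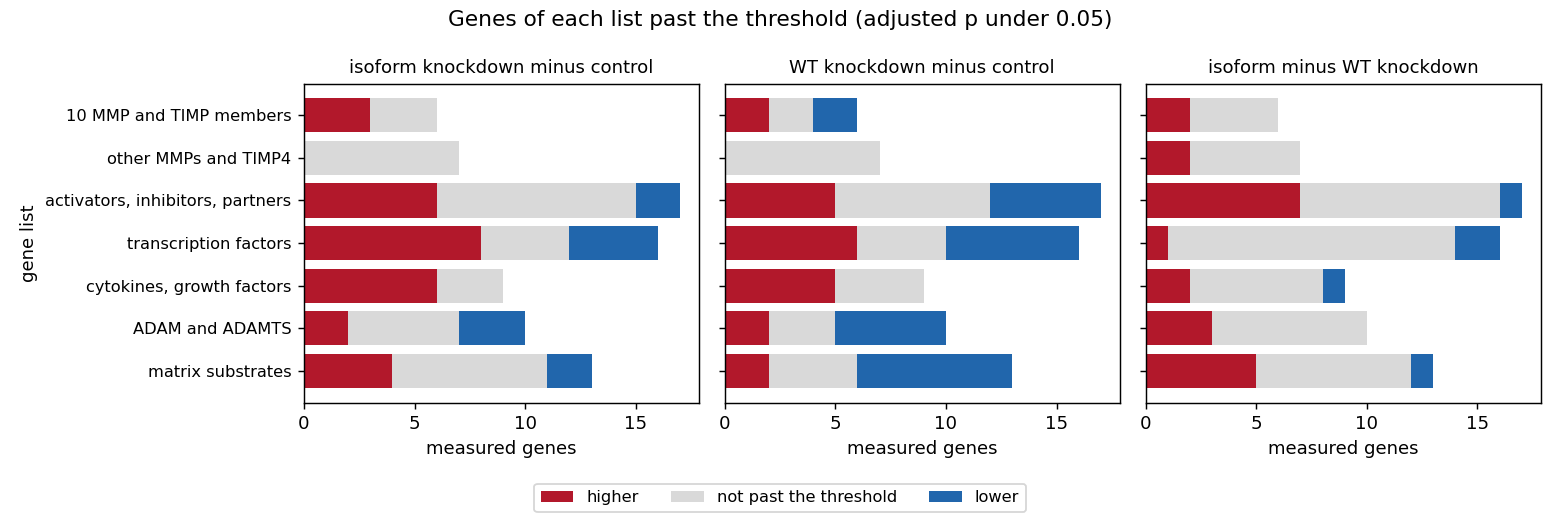
Number of measured genes in each list that were higher (red), lower (blue) or not past an adjusted p of 0.05 (grey) for the isoform knockdown minus control, the WT knockdown minus control and the isoform minus the WT knockdown. In the 7 detected genes among the other MMPs and TIMP4, none passed against control, and 2 were higher in the isoform than in the WT knockdown.

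Over the 8 arrays, MMP3 and TIMP1 followed each other (Pearson r = 0.98), as did TIMP3 and the TIMP2 probe ILMN_1721876 (r = 0.86); the pair of TIMP2 probes had r = 0.81. MMP1 and MMP3 had r = 0.80. These arrays are 3 groups that share their normalization, so r mostly restates the group means. By the same measure over 12091 other genes, the profiles most like that of MMP3 were IGSF3 and RHOB (r = 0.997 and 0.995), and those most like TIMP1 were TMEM134 and AFMID (0.998 and 0.996). MMP1 was closest to TALDO1 and EOLA1 (0.965 and 0.961), MMP14 to ACAA2 and TNFSF13 (0.900 and 0.897), and TIMP3 to STAM2 and CCDC28A (0.978 and 0.977). The TIMP2 probe ILMN_1721876 was closest to E2F4 and SNX21 (0.987 and 0.986), and ILMN_1749078 to PPARD and COPZ1 (0.988 and 0.987). Genes with r of at least 0.95 numbered 221 for MMP3 and 283 for TIMP1, but 3 for MMP1 and 0 for MMP14.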

How the data were processed

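Total RNA of 9 samples, 3 labelled in each group, was amplified, biotin-labelled and hybridised to Illumina arrays, per the labels' protocols. For 47231 probes the deposited signal table gives a mean bead intensity beside a detection p-value on every array, per the file headers, and states no normalization. A second deposited table holds log2 values whose columns share almost the same distribution (medians 6.2302 to 6.2320), as after quantile normalization; it has no step recorded in its header. The submitters' processing notes name R 3.1.0 without a role; the scanner software is not given in the sources used here. The numbered replicates may be technical, in which case the tests cover technical spread alone.

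Control replicate 2 was left out as the mean of the other controls (tolerance 1e-06). Knockdown rows of the signal table stood in another order than their probe IDs: rank correlations with the authors' log2 values lay between -0.00219 and 0.000506 as deposited, against 1 for controls. Each of the 47231 rows matched exactly 1 probe of that table by its ranks and was put back, so every knockdown value takes its probe name from that table.

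Signals were processed with neqc (normexp by detection p-value, offset 16, quantile normalization, log2) in limma 3.58.1 under R 4.3.3. A probe was kept where its detection p was under 0.05 on 3 or more of the 8 arrays, which left 22087 probes, covering 12092 genes by platform symbols (30113 probes had 1 symbol, 8 several, 17110 none). Levels are normalized log2 signals, and differences are log2 differences ± SE from lmFit, contrasts and eBayes (5 residual and 4.28 prior degrees of freedom), adjusted by Benjamini-Hochberg within each comparison, threshold 0.05. A list gene stands for its brightest kept probe. A fold is only a bound where no array of 1 group detected the probe; that group then stands at its own signal or at its arrays' lowest detected signal, whichever is higher. The fit was also run on simulated data with independent noise and known changes, which does not test whether the replicates are independent. Over all kept probes, deviations of same-numbered arrays from their group means had correlations between -0.03 and 0.06.

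The members and lists were chosen with earlier results of these data known. Named genes are all member probes, MTDH, the 3 smallest adjusted p-values of each list and comparison, and the 2 most correlated genes of each detected member; any other is said to be chosen after its values were seen. In the cytokine list CXCL8 also stands under its older symbol, IL8. Protein sequences and the promoters of the other 6 members were not used here. Alternatives tried were no background correction, median scaling, the authors' log2 values, 3 other detection filters, 2 other variance models, control replicate 2 included, only the groups compared, a replicate block, and each array left out. Since control replicate 2 is the mean of the other controls, including it lowers the SE without adding data.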

Additional observations from a re-analysis of the deposited data

How the results depend on the processing

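No value reversed its direction past the threshold under any of the 19 alternatives. With each array left out in turn, member probes past the threshold numbered 2 to 3 (isoform knockdown against control), 3 to 6 (WT knockdown against control) and 1 to 3 (isoform against WT), and probes in all 5602 to 8959, 8692 to 11219 and 5942 to 6978. The lowest of these isoform counts came without control replicate 1 (5602) and without control replicate 3 (5708), against 8743 with both. Under median scaling 4913 probes differed between the knockdowns (3040 higher, 1873 lower), against 7417 (3897 higher, 3520 lower). The same scaling gave 2090 higher and 5539 lower in the isoform knockdown, against 4276 and 4467 with quantile normalization, and 2834 higher and 7507 lower in the WT knockdown, against 5495 and 5804; the cause was not tested. Same-numbered arrays had correlations of deviations between -0.03 and 0.06 over all kept probes, and arrays of different numbers between -0.06 and 0.04. Deviations from the means of so few arrays depend on each other, so these correlations cannot show that a pairing is absent. The 2 controls deviate from their mean as mirror images. MMP1 by itself was lowest on replicate 1 in each group. With the replicate block, 7712, 10644 and 6857 probes and 3, 5 and 3 member probes passed in the isoform, WT and isoform against WT comparisons. MMP1 in the WT knockdown passed under 10 of 19 alternatives (adjusted p from 0.00552 to 0.368), and between the knockdowns under 5 of 19. The lowest, 0.00552, came with median scaling, where the SE was 0.19 in place of 0.26. Another of the 10 included control replicate 2 (adjusted p = 0.0222), which adds no data. Members detected on no array were given neither a fold nor a bound.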
